A study of Homo sapiens with 12 samples.

Results

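The genes described are 40 human genes that write, erase or read lysine acetylation, in MRC5 cells, a fibroblast line from fetal lung. They were chosen by name: 13 acetyltransferases and coactivators with acetyltransferase activity (writers), 18 deacetylases, namely HDAC1 to HDAC11 and SIRT1 to SIRT7 (erasers), and 9 bromodomain proteins (readers). All 40 were found among the 57500 genes of the count table, each on a single row, and all 40 passed the filter on low counts. RNA sequencing was done on 12 libraries in 4 groups of 3. The groups were proliferating cells (Prol), cells made senescent by X-ray irradiation with 20 Gy (Sen(IR)), and irradiated cells given an inhibitor. UK5099 blocks the mitochondrial pyruvate carrier (Sen(IR)+UK5099), and CTPI2 blocks the mitochondrial citrate carrier (Sen(IR)+CTPI2). By the study's methods, irradiated cells were collected 10 to 12 days after irradiation, the inhibitors were added on day 1, and UK5099 was used at 100 µM. CTPI2 was used at 15 or 30 µM in the study, and the sources do not say which dose was sequenced. All 12 libraries come from this single cell line, no vehicle is named for the untreated groups, and the study's legends call the 3 libraries of a group independent without saying how they were made so, which leaves the p-values a measure of the spread between libraries of this line.

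Histone acetyltransferases use acetyl-CoA to attach acetyl groups to lysines, deacetylases remove them, and bromodomains bind the acetylated lysine. HDAC1 to HDAC11 use a zinc ion for the reaction, whereas the sirtuins consume NAD+. Acetyl-CoA outside mitochondria is made largely from exported citrate, which in turn is made in part from pyruvate, so the inhibited carriers lie upstream of the substrate of the writers. Senescent fibroblasts have left the cell cycle for good and secrete inflammatory factors, a state in which acetylation of histones near the secreted genes has been a point of study. The comparisons ask which of the 40 RNAs differed after irradiation and which differed when either carrier was inhibited in irradiated cells. RNA levels say nothing of enzyme activity.

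Library totals ran from 20597736 to 28245693 counts. The 8 fibroblast markers examined, collagens among them, were all present in every group, while the markers of epithelial cells, endothelial cells and leukocytes summed to at most 6.23 CPM (counts scaled to a common library size) in any library. MKI67, a marker of cycling cells, was at 235 ± 32.3 CPM in Prol, 11 ± 1.65 in Sen(IR), 12.5 ± 1.35 in Sen(IR)+CTPI2 and 0.950 ± 0.377 in Sen(IR)+UK5099 (SD, n = 3). A list of 25 proliferation genes summed to 4457 to 5091 CPM in Prol, 526 to 537 in Sen(IR), 515 to 535 in Sen(IR)+CTPI2 and 269 to 280 in Sen(IR)+UK5099. The share of each difference below that goes with the end of cycling was not tested. In these bulk libraries, fewer cells of a kind and less RNA per cell cannot be told apart.

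The single member called in opposite directions after irradiation and with UK5099 was HDAC9, a class IIa deacetylase that binds the MEF2 transcription factors. Both comparisons use the Sen(IR) libraries, and the share of all genes called in opposite directions is not given here. HDAC9 lies on chromosome 7 of GRCh38 at positions 18086949 to 19002416 on the plus strand, and RefSeq gives it 5 start sites. The 250 bases before its most upstream start, which are 75.2% G and C, and the 250 bases before an inner start, which are 44% G and C, are shown first because HDAC9 had the largest rise after irradiation and the largest fall with UK5099 of the 40 genes. The 8 letters CTATTTTT, the core of the site bound by MEF2, are in capitals. These letters were picked after the sequences had been read.

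HDAC9, upstream start, chr7:18086575-18086824, plus strand: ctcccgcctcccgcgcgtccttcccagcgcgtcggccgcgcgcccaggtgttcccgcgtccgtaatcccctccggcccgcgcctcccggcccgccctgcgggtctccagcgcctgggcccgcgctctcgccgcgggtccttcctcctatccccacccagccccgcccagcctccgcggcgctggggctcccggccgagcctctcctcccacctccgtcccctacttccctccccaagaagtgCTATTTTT
HDAC9, inner start, chr7:18495460-18495709, plus strand: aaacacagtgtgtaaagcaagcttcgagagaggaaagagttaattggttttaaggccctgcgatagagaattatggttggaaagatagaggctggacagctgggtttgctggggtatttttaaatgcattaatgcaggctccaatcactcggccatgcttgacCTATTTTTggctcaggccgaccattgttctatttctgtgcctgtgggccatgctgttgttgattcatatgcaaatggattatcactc

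CTATTTTT, searched on both strands, was present before 4 of the 5 HDAC9 starts, of which some windows overlap. It was before no start of the other members that have a window, and members without a window, HDAC5 among them, could not be searched. Of all 35116 promoter windows of this length in the RefSeq table (GRCh38.p14), 1.24% held it. Because the letters were picked from the HDAC9 windows, their presence there is no test against this share. A match of letters is a description of the window and not a site of binding. None of the 5 windows of HDAC4, a paralog of HDAC9, held these letters. With the letters in 1.24% of all windows, their absence says nothing of HDAC4 in particular.

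The promoter of HAT1, the most reduced writer, is shown because HAT1 acetylates newly made histones and is the writer whose level in Prol was highest per kb. The CCAAT box, which reads ATTGG on the strand shown, is in capitals.

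HAT1, chr2:171922211-171922460, plus strand: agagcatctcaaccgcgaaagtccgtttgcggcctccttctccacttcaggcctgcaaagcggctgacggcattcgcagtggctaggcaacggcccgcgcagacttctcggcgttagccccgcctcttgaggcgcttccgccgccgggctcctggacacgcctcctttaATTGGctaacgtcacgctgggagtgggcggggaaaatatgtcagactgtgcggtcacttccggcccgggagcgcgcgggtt

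A CCAAT box on either strand was found in 12 of the 59 windows of the members (20.3%) and in 32.0% of all windows. The 59 windows belong to 34 members, and those with the box were HDAC1, NCOA1, HAT1, HDAC9, KAT6B, SIRT6, SIRT2, HDAC10 and HDAC6. Of the 9 members with a window that were lower in Sen(IR), 2 held it. The E2F motif, bound by the factors that drive genes of DNA replication, was searched as TTTCGCGC, TTTGGCGC and TTTCCCGC, and none of these was found before those 9 members. With each spelling in at most 1.39% of all windows, this absence says nothing of the 9 members in particular. TTTCGCGC was in 1.69% of the members' windows (BRPF3) and 0.439% of all, and TTTCCCGC in 3.39% (BRD7 and SIRT6) and 1.39% of all. TTTGGCGC was found before no member and in 0.550% of all windows. KAT6A, KAT8, NCOA2, HDAC5, SIRT7 and ATAD2 have no window in the table.

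Levels between genes were compared per kilobase of the MANE Select transcript, the transcript chosen by RefSeq and Ensembl to stand for a gene. In Sen(IR) the members ran from 44.2 CPM per kb for HDAC1, a class I deacetylase of corepressor complexes, to 0.920 for SIRT4, a sirtuin of mitochondria. BRD2, a bromodomain protein bound to acetylated chromatin, stood at 42.4 CPM per kb, and HAT1, which acetylates new histone H4, at 32.7. With SDs of 0.841 and 1.05 CPM per kb, the order of HDAC1 and BRD2 is not firm. HDAC9 at 1.32 and HDAC4 at 1.30 CPM per kb did not differ beyond their spread either. In Prol the highest member was HAT1 at 77.8 CPM per kb, above HDAC1 at 66.5. Dividing by the bases of all annotated exons instead changes the order, since HAT1 in Sen(IR) then falls to 7.86 CPM per kb, under HDAC2 at 10 CPM per kb.

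**Figure D1:**
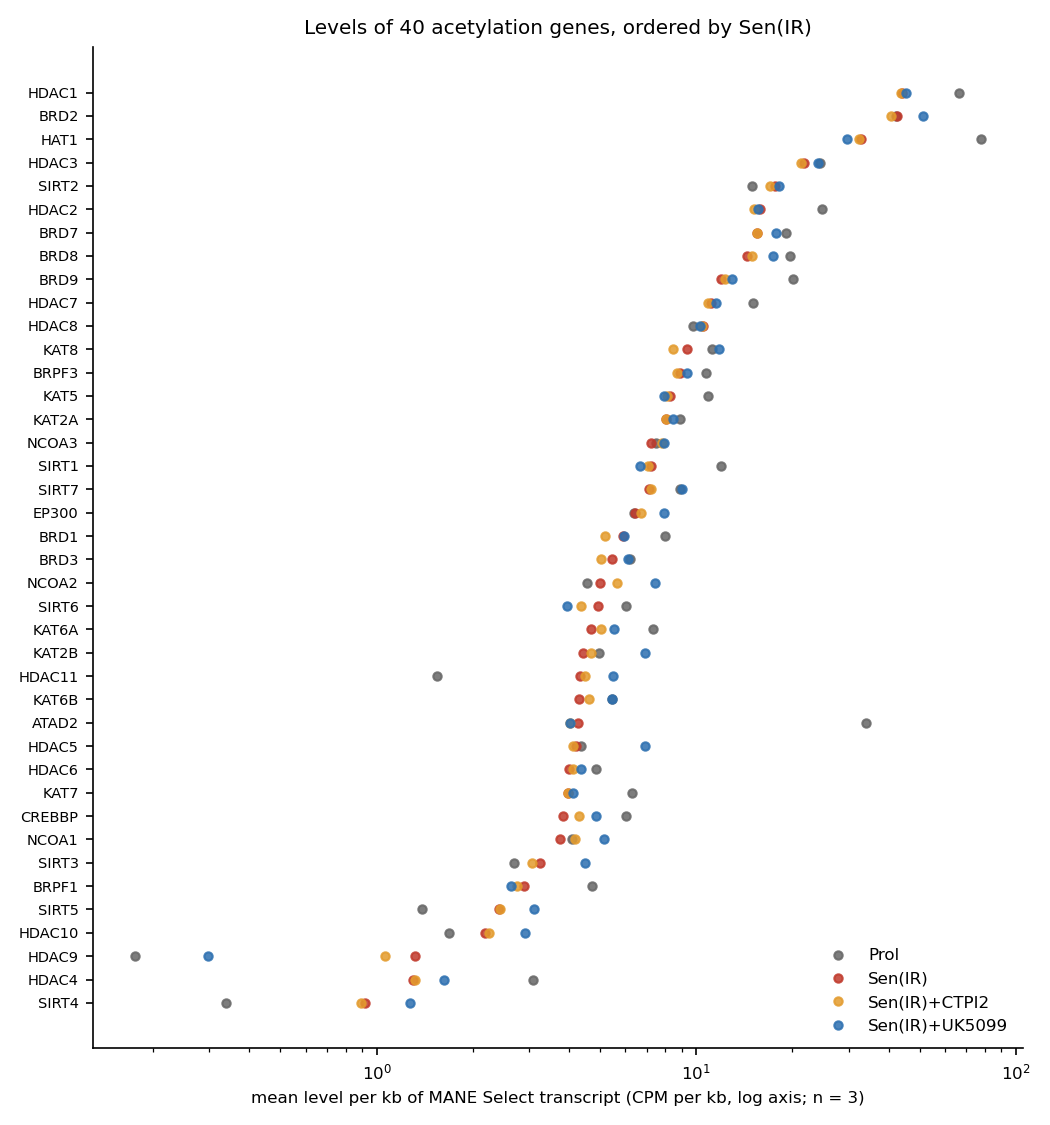
Mean level of each of the 40 genes in CPM per kb of MANE Select transcript (log axis), with 1 point for each group of 3 libraries and genes ordered by Sen(IR). HDAC9 has its Prol and Sen(IR)+UK5099 points far to the left of the Sen(IR) and Sen(IR)+CTPI2 points, and ATAD2 and HAT1 have their Prol points far to the right of the other groups.

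After irradiation, 15 of the 40 members changed, 4 upward and 11 downward, with a change called at an adjusted p under 0.05 in edgeR and a log2 fold change beyond 0.5 either way. Writers and readers only fell among those called (0 up and 4 down of 13 writers, 0 up and 3 down of 9 readers), and erasers went both ways (4 up and 4 down of 18). Of all 16251 genes tested, 47.2% were called in this comparison, 24.8% higher and 22.4% lower, so the number of members called was not large for these data. The median log2 fold change of the 40 was -0.28, and that of all genes was 0.01. Without the fold limit, 6 members were higher and 25 lower, against 34.1% and 34.5% of all genes. The groups did not overlap for 29 members, against 70.9% of all genes. Upper-quartile scaling, which moves the median of all genes to 0.13, put the members' median at -0.15.

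Among the writers, HAT1 showed the largest fall. Its levels were 132, 116 and 133 CPM in the Prol libraries and 52.1, 54.4 and 53.7 in Sen(IR), a 2.38-fold lower level (log2 fold change -1.25 ± 0.0616, SE, edgeR adjusted p = 3.58e-14). Every Prol library lay far above every Sen(IR) library. KAT7, the acetyltransferase of the HBO1 complex that acts at origins of replication, was at 57.3, 62.3 and 60.7 CPM in Prol and 37.0, 39.4 and 37.2 in Sen(IR), a change of -0.67 ± 0.0600 (adjusted p = 1.40e-09).

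The other writers that fell were CREBBP, a general coactivator, and KAT6A, which acetylates histone H3. CREBBP was at 72.1, 66.5 and 56.2 CPM in Prol and 42.9, 41.8 and 39.6 in Sen(IR), a change of -0.65 ± 0.0933 (adjusted p = 2.19e-06). KAT6A was at 74.2, 72.3 and 55.4 CPM in Prol and 42.5, 45.1 and 41.0 in Sen(IR), a change of -0.65 ± 0.110 (adjusted p = 1.85e-05). For both genes Prol replicate 3 was the lowest Prol library and still lay above all of Sen(IR). In that library the 2539 genes with transcripts over 6 kb lay 0.07 below the group mean (median, log2) and the 2971 genes with transcripts under 2 kb lay 0.09 above it. CREBBP and KAT6A have transcripts of 10790 and 9153 bases, and the part of transcript length in the spread was not tested.

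EP300, the close paralog of CREBBP, stood at 56.0 ± 4.80 CPM in Prol and 56.3 ± 3.23 in Sen(IR) (SD, n = 3), with a 95% interval for the log2 fold change from -0.17 to 0.18. Its share of the counts of the pair was therefore 46.4% ± 1.03 in Prol and 57.6% ± 1.87 in Sen(IR), and the libraries did not overlap. An exact permutation test of 3 against 3 cannot give a p below 0.1, so shares are given as a description. Among the remaining writers, KAT5, the enzyme of the TIP60 complex, was lower by an adjusted p of 1.23e-04 but within the fold limit (log2 fold change -0.40). It shares 38.56% of its exon bases with RNASEH2C, which also fell (-0.57 ± 0.118, edgeR adjusted p = 1.81e-04). Also lower by the adjusted p but within the fold limit were KAT6B, a paralog of KAT6A, at -0.35, KAT8, which acetylates histone H4, at -0.27 and KAT2B at -0.18. KAT2A, NCOA1, NCOA2 and NCOA3 did not pass, with log2 fold changes of -0.15, -0.13, 0.13 and -0.06.

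**Figure D2:**
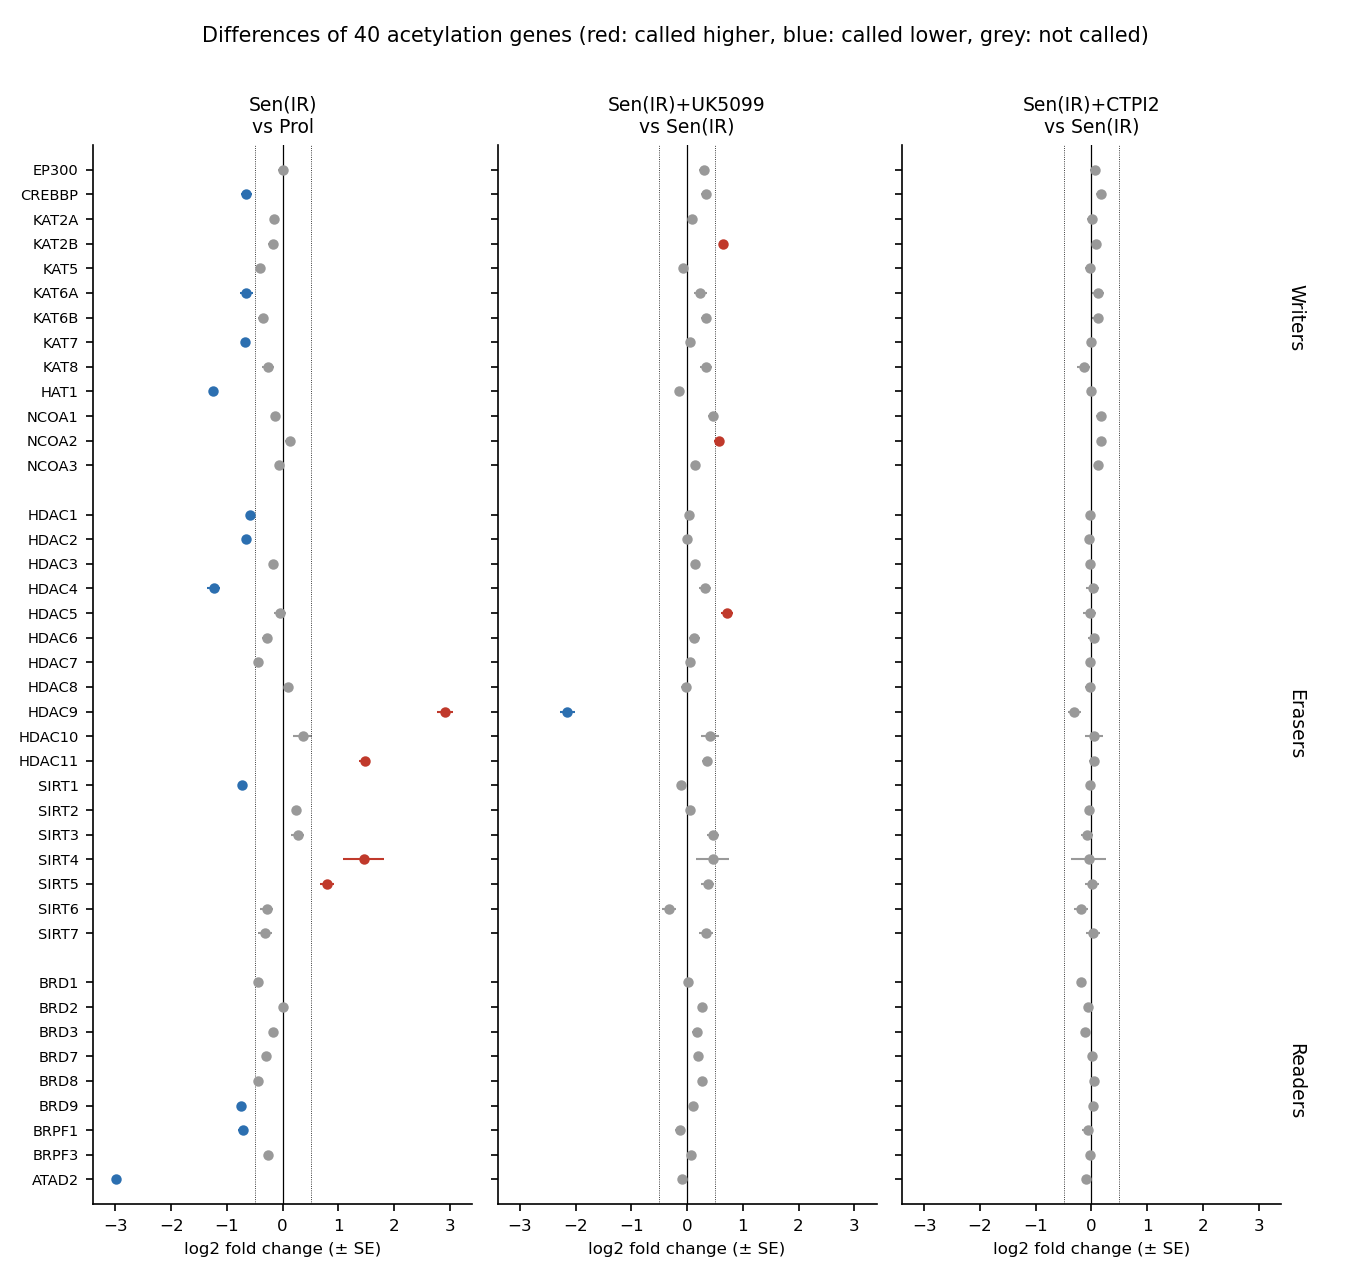
Log2 fold change (points) with its SE (bars) of the 40 genes for irradiation, UK5099 and CTPI2, by role from top to bottom, with dotted lines at a log2 fold change of 0.5 either way. Irradiation gave 11 called falls and 4 called rises, UK5099 gave 3 rises and the fall of HDAC9, and CTPI2 gave none.

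Among the zinc-dependent erasers, HDAC9 showed the largest rise of all 40 genes. It was at 2.18, 1.55 and 1.49 CPM in Prol and 12.9, 13.2 and 13.0 in Sen(IR), 7.52-fold higher (log2 fold change 2.91 ± 0.149, adjusted p = 7.02e-14). The Sen(IR) libraries lay close together, and the highest Prol library was at 2.18 CPM. HDAC11, the sole class IV deacetylase, was at 4.09, 4.59 and 4.42 CPM in Prol and 11.4, 12.3 and 12.8 in Sen(IR), a rise of 1.47 ± 0.104 (adjusted p = 2.30e-11).

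HDAC4, another class IIa enzyme, fell from 23.7, 30.7 and 23.7 CPM to 10.7, 11.8 and 10.4, a change of -1.24 ± 0.109 (adjusted p = 9.34e-10). HDAC1 and HDAC2, the paired catalytic subunits of the SIN3, NuRD and CoREST complexes, fell by near amounts. HDAC1 was at 133, 140 and 149 CPM in Prol and 95, 91.7 and 94.4 in Sen(IR) (log2 fold change -0.59 ± 0.0578, adjusted p = 5.91e-09), a call that upper-quartile scaling ends (-0.47). HDAC2 was at 238, 233 and 251 CPM in Prol and 147, 159 and 154 in Sen(IR) (-0.65 ± 0.0538, adjusted p = 3.52e-10). HDAC1 kept 36.9% ± 0.951 of the counts of the pair in Prol and 37.9% ± 1.34 in Sen(IR), with overlapping libraries.

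The 6 other HDACs were not called. HDAC7 was lower by 0.44 on the log2 scale (adjusted p = 1.79e-06), HDAC6, a deacetylase of tubulin, by 0.28 and HDAC3, a class I enzyme, by 0.17, all within the fold limit. HDAC5, HDAC8, also of class I, and HDAC10, which acts on polyamines, did not pass, at -0.05, 0.10 and 0.36. HDAC10 shares 73.60% of its exon bases with MAPK12 and another annotated gene, so few of its exon bases are its own.

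Taking the class IIa deacetylases as a family, HDAC9 held 1.51% ± 0.286 of the summed counts of HDAC4, HDAC5, HDAC7 and HDAC9 in Prol and 14.0% ± 0.316 in Sen(IR). Over the same comparison HDAC4 went from 22.9% ± 4.77 to 11.8% ± 0.518, so that HDAC9 passed HDAC4 in counts. HDAC7 held the most counts in both groups, at 55.5% ± 1.38 and 50.2% ± 0.594. These are shares of read counts, not of molecules, since the transcripts differ in length.

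**Figure D3:**
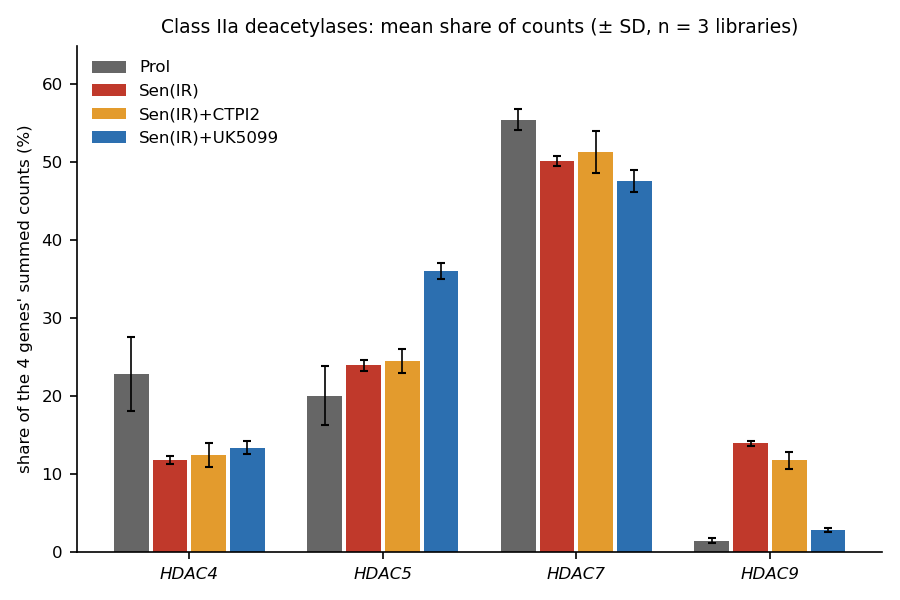
Share of the summed counts of the class IIa deacetylases held by each gene, as the mean (bars) and SD (error bars) of 3 libraries in each of the 4 groups. The HDAC9 share is 14.0% in Sen(IR) and 11.8% in Sen(IR)+CTPI2 but 1.51% in Prol and 2.87% in Sen(IR)+UK5099, whereas the HDAC5 share is highest in Sen(IR)+UK5099 at 36.1%.

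The sirtuins are given by their place in the cell. SIRT1, the best studied nuclear sirtuin, fell from 52.5, 46.4 and 48.7 CPM to 29.4, 28.6 and 30.8, a change of -0.73 ± 0.0682 (adjusted p = 2.38e-09). SIRT5, a mitochondrial sirtuin that removes succinyl and malonyl groups, rose from 6.44, 6.44 and 6.21 CPM to 10.8, 8.96 and 13.3, a change of 0.79 ± 0.125 (adjusted p = 8.07e-06). SIRT4 was at 0.469, 0.429 and 0.335 CPM in Prol and 1.42, 0.806 and 1.13 in Sen(IR), a change of 1.45 ± 0.364 (adjusted p = 0.00131). It rests on the fewest counts of any member, from 9 in a Prol library upward, so its size is known only to within 0.69 to 2.2 (95% interval).

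SIRT3, the main deacetylase of mitochondria, was higher by 0.27 ± 0.114 (adjusted p = 0.0431) and SIRT2, mostly cytosolic, by 0.24 ± 0.0742 (adjusted p = 0.00613), both under the fold limit. SIRT6 and SIRT7, both nuclear, were lower by 0.29 (adjusted p = 0.0396) and 0.32 (adjusted p = 0.0237), also under the limit. The adjusted p alone was passed by 34.1% of all genes upward and 34.5% downward, so that the sirtuins under the fold limit do not stand apart by passing it.

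Among the readers, ATAD2, an ATPase with a bromodomain that is expressed in cycling cells, had the largest difference of the 40. It was at 205, 176 and 184 CPM in Prol and 24.8, 22.8 and 23.7 in Sen(IR), 7.92-fold lower (log2 fold change -2.99 ± 0.0704, adjusted p = 1.09e-19). All 25 genes of the proliferation list fell in the same comparison, with a median of -3.58. BRD9, a subunit of a SWI/SNF complex, went from 56.9, 51.7 and 51.8 CPM to 34.7, 32.6 and 28.8 (-0.74 ± 0.0706, adjusted p = 4.06e-09).

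BRPF1, the scaffold of the KAT6A and KAT6B complexes, fell from 24.7, 20.4 and 22.0 CPM to 14.6, 13.1 and 13.3 (-0.71 ± 0.0883, adjusted p = 2.63e-07). Its paralogs BRD1 and BRPF3 were lower by 0.44 and 0.26, under the fold limit. BRD8 and BRD7, subunits of the TIP60 and SWI/SNF complexes, were lower by 0.45 and 0.30, and BRD3 by 0.18, again under it. BRD7 shares 41.91% of its exon bases with other genes, mostly ADCY7, and BRD3 shares 18.63% with BRD3OS. ADCY7 also fell in this comparison (-0.61 ± 0.138, edgeR adjusted p = 5.09e-04), whereas BRD3OS rose (0.50 ± 0.0809, adjusted p = 1.06e-05). BRD2 was at 209 ± 4.13 CPM in Prol and 210 ± 5.22 in Sen(IR), with a 95% interval from -0.09 to 0.11.

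**Figure D4:**
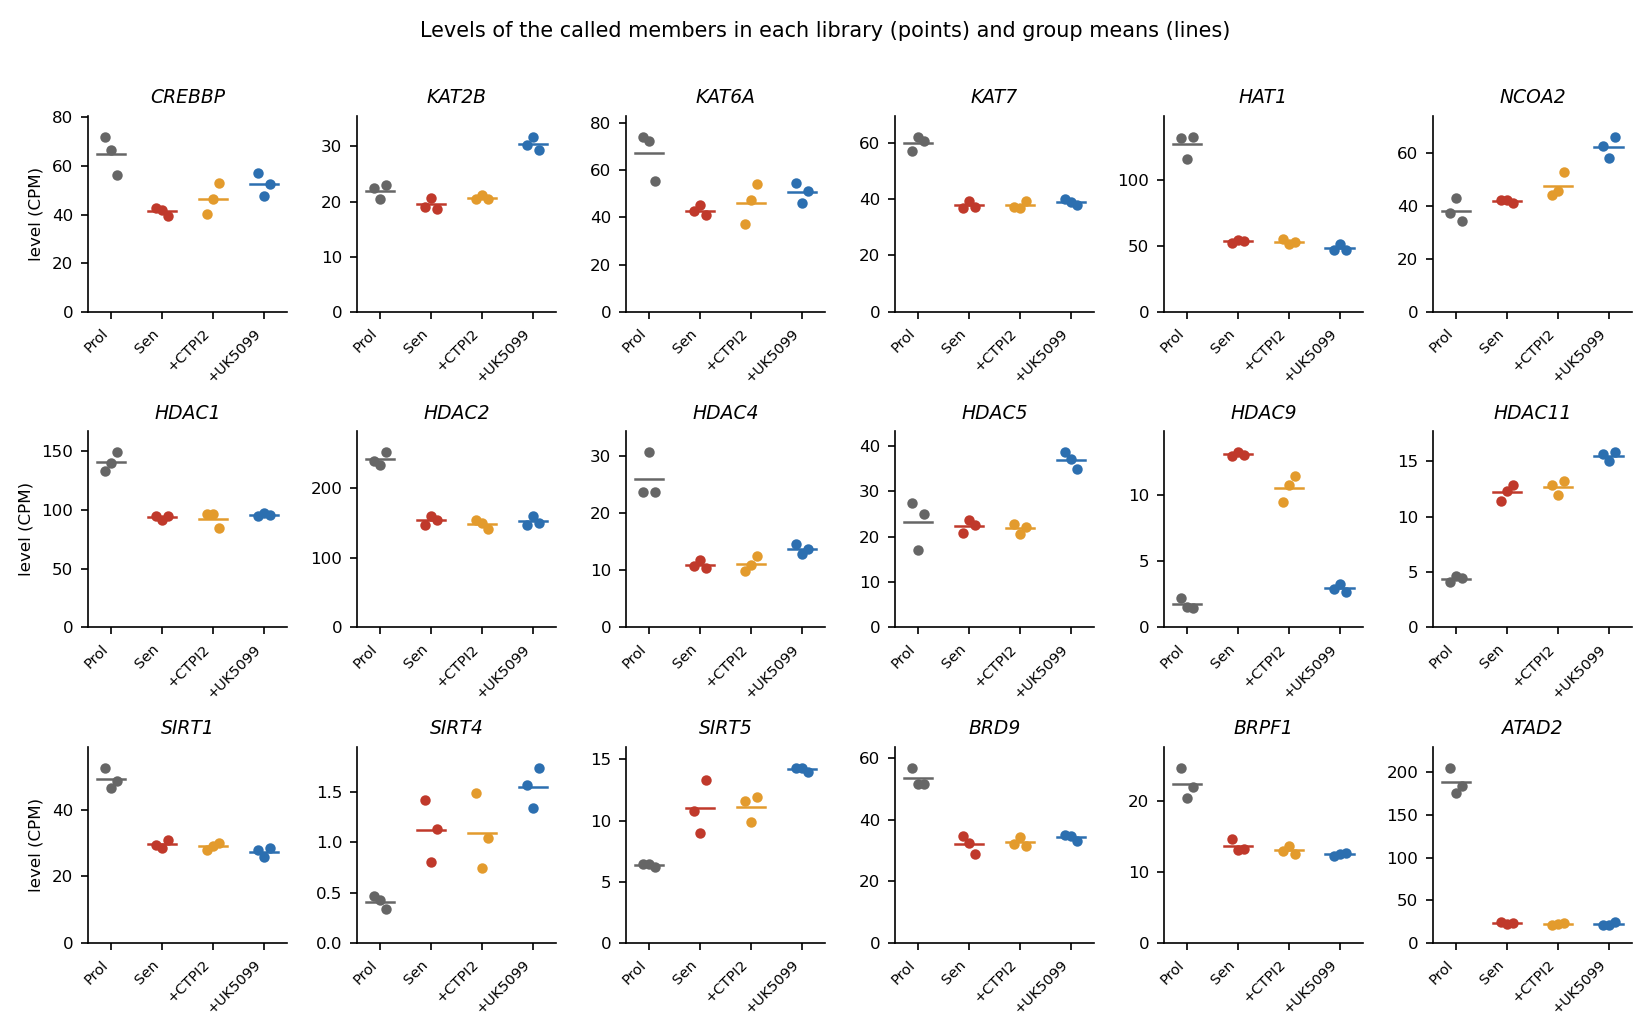
Levels in CPM of the 18 genes called in the comparisons of irradiation or of an inhibitor, with 1 point per library and a line at each group mean. In the HDAC9 panel the Sen(IR)+CTPI2 points (9.43 to 11.4 CPM) lie just below the Sen(IR) points, and the Sen(IR)+UK5099 points (2.64 to 3.30 CPM) lie near the Prol points.

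With UK5099, 4 of the 40 members changed relative to untreated Sen(IR). KAT2B, NCOA2 and HDAC5 rose and HDAC9 fell. Of all genes 20.8% were called, 8.76% higher and 12.1% lower, and the distance of the members' share from these shares was not tested. The members' differences were small but mostly positive, with 31 of 40 above 0, against 8288 of all 16251 genes. Their median was 0.16, against 0.0099 for all genes. Without the fold limit, 17 were higher and 2 lower, against 21.9% and 23.5% of all genes. The groups did not overlap for 26 members, against 56.6% of all genes.

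HDAC9 was at 12.9, 13.2 and 13.0 CPM in Sen(IR) and 2.86, 3.30 and 2.64 in Sen(IR)+UK5099, 4.43-fold lower (log2 fold change -2.15 ± 0.136, adjusted p = 1.41e-11). The treated libraries all lay above the Prol libraries, 1.70-fold on average (0.76 ± 0.175 for Sen(IR)+UK5099 against Prol, adjusted p = 4.82e-04). The order of its levels was Prol, Sen(IR)+UK5099, Sen(IR)+CTPI2 and Sen(IR), and the libraries of no pair of groups overlapped, although the step from Sen(IR)+CTPI2 to Sen(IR) did not pass the adjusted p. Of all 16251 genes, 12113 likewise had no overlap between Sen(IR)+UK5099 and Prol. The share of all genes without overlap in every pair of groups is not given here.

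HDAC5, a class IIa paralog, rose as HDAC9 fell. It was at 20.9, 23.7 and 22.6 CPM in Sen(IR) and 38.6, 37.1 and 35.0 in Sen(IR)+UK5099, a change of 0.72 ± 0.110 (adjusted p = 1.33e-05). In Prol it spread from 17.1 to 27.4 CPM, and the 95% interval of its difference between Sen(IR) and Prol was -0.29 to 0.19. HDAC5 shares 23.97% of its exon bases with G6PC3, which moved the other way with UK5099, from 68.6 ± 2.99 to 57.5 ± 2.31 CPM (-0.25 ± 0.0691, adjusted p = 0.00474). HDAC4 was higher by 0.32 (adjusted p = 0.0259) and HDAC7 by 0.06 (adjusted p = 0.482).

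Of the writers, KAT2B, the PCAF acetyltransferase of SAGA-type complexes, rose from 19.1, 20.6 and 18.7 CPM to 30.3, 31.8 and 29.3, a change of 0.65 ± 0.0733 (adjusted p = 2.07e-07). Its paralog KAT2A was at 25.0 ± 0.753 CPM in Sen(IR) and 26.4 ± 1.23 with UK5099 (95% interval -0.08 to 0.24). The share of KAT2B in the counts of the pair thus went from 43.7% ± 1.95 to 53.6% ± 2.09, and KAT2B held more counts than KAT2A in every Sen(IR)+UK5099 library. Per kb of MANE Select transcript KAT2A stayed the higher, at 8.47 CPM per kb beside 6.90 for KAT2B. NCOA2, a coactivator of nuclear receptors, rose from 42.5, 42.3 and 41.4 CPM to 62.8, 58.1 and 66.4, a change of 0.57 ± 0.0787 (adjusted p = 3.43e-06). In the NCOA family its share of counts went from 33.1% ± 0.697 to 38.2% ± 0.996.

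A further group of writers was higher with UK5099 without reaching the fold limit. These were NCOA1 (0.46, adjusted p = 9.22e-05), CREBBP (0.34, adjusted p = 0.00492), KAT6B (0.34, adjusted p = 0.00559), KAT8 (0.34, adjusted p = 0.0153) and EP300 (0.30, adjusted p = 0.00539). KAT6A was at 0.24 (adjusted p = 0.0821) and NCOA3 at 0.14 (adjusted p = 0.130). KAT5, KAT7 and HAT1 had differences of -0.07, 0.05 and -0.14 that did not pass.

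Many of these writers have long transcripts, and long transcripts as a class stood higher with UK5099. Over all genes tested the median log2 fold change with UK5099 was -0.10 for transcripts under 2 kb, -0.02 for 2 to 4 kb, 0.05 for 4 to 6 kb and 0.11 for transcripts over 6 kb. The members' medians in the same classes were 0.10, 0.10, 0.17 and 0.27 (8, 7, 13 and 12 members). The part of transcript length in the members' small positive differences was not tested. KAT2B, whose transcript has 4410 bases, and HDAC5, with 5319, are in the 4 to 6 kb class. NCOA2, the other member called higher, has a transcript of 8430 bases and is in the class over 6 kb.

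Among the remaining erasers, several were higher with UK5099 below the fold limit. SIRT3 was at 9.21, 9.29 and 9.56 CPM in Sen(IR) and 12, 14.4 and 12.4 with UK5099 (0.47 ± 0.108, adjusted p = 0.00120). SIRT5 (0.37, adjusted p = 0.0120), HDAC11 (0.35, adjusted p = 0.00322), HDAC10 (0.41, adjusted p = 0.0353) and SIRT7 (0.34, adjusted p = 0.0266) were also higher. SIRT4 had a difference of 0.46 that did not pass (95% interval -0.16 to 1.08). SIRT6 was lower by 0.32 (adjusted p = 0.0400), the sole eraser beside HDAC9 to pass the adjusted p downward.

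HDAC1 and HDAC2, which had fallen after irradiation, differed by 0.03 and -0.01 with UK5099, and the 95% intervals were -0.09 to 0.15 and -0.12 to 0.10. SIRT1 differed by -0.11 (adjusted p = 0.206), SIRT2 by 0.05, HDAC3 by 0.15, HDAC6 by 0.13 and HDAC8 by -0.02, and none passed. No reader was called. BRD2 was higher by 0.27 (adjusted p = 5.78e-05), at 208, 216 and 207 CPM in Sen(IR) and 258, 250 and 253 with UK5099, with BRD8 at 0.27 (adjusted p = 2.87e-04) and BRD7 at 0.20 (adjusted p = 0.00410). ATAD2 stayed low, at 23.7 ± 1.01 CPM in Sen(IR) and 22.3 ± 1.70 with UK5099 (95% interval -0.24 to 0.07), although 20 of the 25 proliferation genes fell further and their median was -1.37. The remaining readers, BRD1, BRD3, BRD9, BRPF1 and BRPF3, ran from -0.13 to 0.17. The fibroblast markers also moved with UK5099, from a sum of 19845 to 20411 CPM in Sen(IR) to 10544 to 10987, and the part of this in the members' differences was not tested.

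With CTPI2, none of the 40 members was called by edgeR or by DESeq2, against 0.166% of all genes. At an unadjusted p under 0.05 edgeR gave 3 of the 40 members, HDAC9, BRD1 and NCOA2, against 7.27% of all genes, so this count is at the background and the values that follow are a description. The groups did not overlap for 7 members, against 15.1% of all genes, and the members' median log2 fold change was -0.01. HDAC9 was at 9.43, 10.7 and 11.4 CPM with CTPI2, all under the lowest Sen(IR) library, a difference of -0.31 ± 0.118 (edgeR adjusted p = 0.491, 95% interval -0.55 to -0.07). BRD1 differed by -0.19 (95% interval -0.34 to -0.04) and NCOA2 by 0.18 (0.01 to 0.34). For the 39 members other than SIRT4 the 95% intervals lay between -0.55 and 0.38, and for 38 of them within the fold limit of 0.5 either way. Over all genes with transcripts over 6 kb, Sen(IR)+CTPI2 replicate 3 lay 0.06 above the group mean (median, log2). Of the members in this class, it was the highest CTPI2 library for EP300, CREBBP, KAT6A, KAT6B, KAT7, NCOA2, NCOA3, HDAC4 and HDAC9. It was level with replicate 1 for NCOA1, and the lowest for HDAC2 (141 CPM) and BRPF3 (51.9 CPM).

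The inhibitors were also compared directly, at doses that differ. Sen(IR)+UK5099 against Sen(IR)+CTPI2 gave 4 called members, 3 higher and 1 lower, where 19.9% of all genes were called (8.20% higher and 11.7% lower). HDAC5 was higher by 0.76 ± 0.110 (adjusted p = 7.51e-06), KAT2B by 0.55 ± 0.0723 (adjusted p = 1.77e-06) and SIRT3 by 0.55 ± 0.108 (adjusted p = 2.58e-04), and HDAC9 was lower by 1.84 ± 0.137 (adjusted p = 2.89e-10). SIRT3 is no longer called without Sen(IR)+UK5099 replicate 2 (0.46, adjusted p = 0.00335). NCOA2, called with UK5099 against Sen(IR), was higher by 0.39 ± 0.0776 here (adjusted p = 2.75e-04), within the fold limit. This comparison and that of UK5099 with Sen(IR) share the UK5099 libraries.

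Against Prol, Sen(IR)+UK5099 had 18 members called, 8 higher and 10 lower, where 53.1% of all genes were called (26.9% higher and 26.2% lower). Upper-quartile scaling, which moves the median of all genes to 0.15, made the split 9 higher and 6 lower, and ended the calls of KAT7 (-0.48), HDAC1 (-0.42), SIRT6 (-0.47) and BRD9 (-0.50). Without Prol replicate 2, HDAC5 is no longer called here (0.50). Of the 11 members that fell after irradiation, 9 were also lower here, and CREBBP (-0.30) and KAT6A (-0.41) had differences within the fold limit. HAT1 was at -1.39 ± 0.0614 and ATAD2 at -3.07 ± 0.0699 in this comparison, beside -1.25 and -2.99 for Sen(IR) against Prol. The 4 members that rose after irradiation were all higher than in Prol, HDAC11 by 1.82 ± 0.101, SIRT4 by 1.91 ± 0.342, SIRT5 by 1.16 ± 0.121 and HDAC9 by 0.76. These comparisons share the Prol libraries. The share of all genes called the same way in both is not given here, so the counts of members called in both are a description. The members called here but not after irradiation were NCOA2 (0.70), HDAC5 (0.67), HDAC10 (0.78), SIRT3 (0.74) and SIRT6 (-0.61).

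Summed over the writers, the level was 638 ± 34.0 CPM in Prol, 470 ± 14.1 in Sen(IR), 497 ± 29.4 in Sen(IR)+CTPI2 and 560 ± 26.3 in Sen(IR)+UK5099 (SD, n = 3). The readers summed to 794 ± 26.2, 535 ± 10.6, 520 ± 9.43 and 610 ± 5.26 CPM in the same order. The erasers summed to 705 ± 25.3, 539 ± 7.89, 526 ± 16.0 and 567 ± 11.2 CPM. For each role every Prol library lay above every Sen(IR) library, and every Sen(IR)+UK5099 library lay between them. The sums are led by the most counted genes, HDAC2 among the erasers and BRD2 among the readers, and say little of HDAC9. Their order is not that of each member. ATAD2 was at 188 CPM in Prol, 23.7 in Sen(IR) and 22.3 in Sen(IR)+UK5099, and HAT1 at 127, 53.4 and 48.4. BRD2 was at 209, 210 and 254 CPM in the same groups. The genes that fell most after irradiation are thus not those that raised the sums with UK5099.

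**Figure D5:**
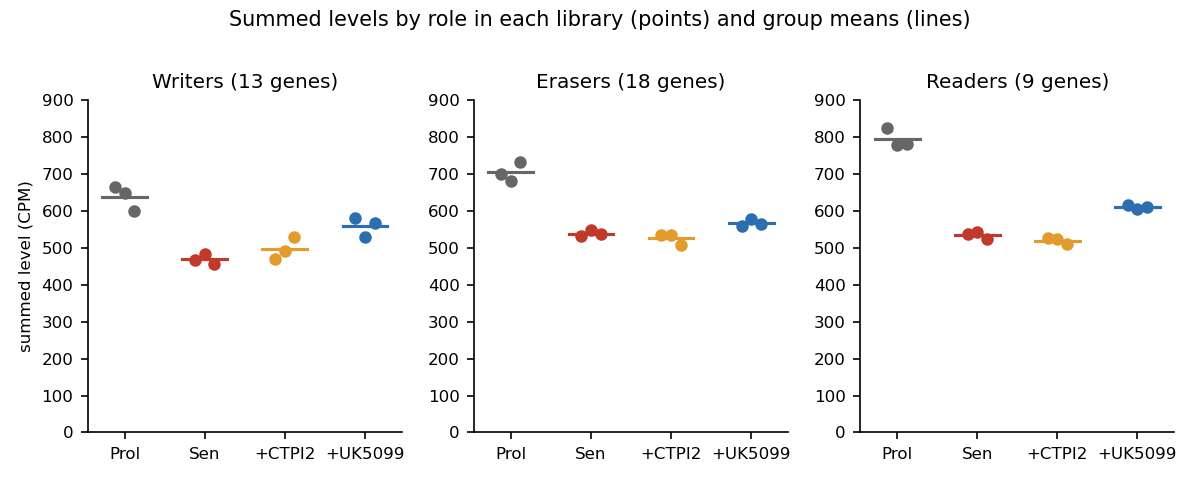
Summed level in CPM of the writers, erasers and readers, with 1 point per library, a line at each group mean and the vertical axis starting at 0. In each panel the Prol libraries are highest, the Sen(IR) and Sen(IR)+CTPI2 libraries overlap or lie next to each other, and the Sen(IR)+UK5099 libraries lie above Sen(IR) and below Prol.

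The partners of the enzymes were read from lists written by name. Of 32 subunits of acetyltransferase complexes, 1 rose and 13 fell after irradiation, with a median of -0.35, where 24.8% of all genes rose and 22.4% fell. JADE1, a scaffold of the HBO1 complex that holds KAT7, fell from 57.4 ± 2.27 to 18.3 ± 0.655 CPM (-1.65 ± 0.0807, adjusted p = 3.29e-14), and ING3 and SGF29, subunits of the TIP60 and SAGA complexes, fell by 1.43 and 1.38. Of 33 subunits of deacetylase corepressors, 0 rose and 14 fell against the same shares, with a median of -0.40, among them SAP30 of the SIN3 complex (-1.33) and RBBP7 (-1.28), which also works with HAT1. Of 28 other readers of acetyl-lysine that passed the filter, 4 rose and 10 fell, again against 24.8% and 22.4% of all genes, led by BAZ1A (-1.16), TRIM28 (-0.99) and YEATS4 (-0.93). With UK5099, where 20.8% of all genes were called, these lists had 2 called rises (JADE3 at 0.64 and BAZ2B at 0.56) and 1 called fall (RUVBL2 at -0.58), and with CTPI2 there were 0 by edgeR, with 1, 1 and 3 genes of the respective lists at an unadjusted p under 0.05, against 7.27% of all genes.

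NAD+ is the cosubstrate of the sirtuins. Of 11 tested genes that make or spend it, 5 rose and 4 fell after irradiation, where 24.8% and 22.4% of all genes did. NAMPT, the rate-limiting enzyme of NAD+ salvage, was at 89.5 ± 2.85 CPM in Prol, 724 ± 51.5 in Sen(IR), 616 ± 44.1 in Sen(IR)+CTPI2 and 117 ± 8.17 in Sen(IR)+UK5099 (SD, n = 3). Its log2 fold change was 3.02 ± 0.0673 after irradiation (adjusted p = 5.12e-20) and -2.63 ± 0.0659 with UK5099 (adjusted p = 9.40e-19), so that NAMPT, like HDAC9, rose and fell in the respective comparisons. These comparisons share the Sen(IR) libraries, and the number of all genes with this pattern is not given here. QPRT, an enzyme of the route from tryptophan to NAD+, rose by 3.07 after irradiation, and PARP1, which consumes NAD+ in DNA repair, fell by 1.19. NNMT, which methylates nicotinamide, fell by 1.06 with UK5099, from 65.9 ± 2.46 CPM in Sen(IR) to 31.5 ± 3.52. In Prol it was at 135 ± 20.1 CPM, above both. Of the 11 genes, 0 were called higher and 2 lower with UK5099, where 8.76% and 12.1% of all genes were.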

How the data were processed

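Per the labels and the methods of the study, total RNA of MRC5 cells was sequenced as paired reads, and the authors used Trimmomatic 0.36 for trimming, STAR 2.5.2b for alignment to GRCh38, and featureCounts (Subread 1.5.2) for counting, per gene, the reads mapped once to exons. Whether counting used strand is not given in the sources used here. The deposited table holds raw counts for 12 libraries, and 0 sample columns were left unmapped. The tests used edgeR 4.0.16 in R 4.3.3, with filterByExpr over the 4 groups, TMM factors and the quasi-likelihood test (glmQLFit, glmQLFTest), in a single fit without a replicate term, with Benjamini-Hochberg adjustment over 16251 genes. Calls needed an adjusted p below 0.05 and a log2 fold change beyond 0.5 either way, and the SE is the fold change divided by the square root of F. Levels (CPM) are counts scaled by library total and TMM factor. The 40 members, lists and tests were chosen with earlier results of these data known. All 40 members are named, and from each list at most 3 called genes. Positions, lengths and exon overlaps are from GENCODE v44, promoters from RefSeq. The calling step was tested on simulated data. Replicates varied by 6.12% (coefficient of variation of the common dispersion), and counts of replicate libraries differed beyond sampling noise (chi-square per gene 2.28 to 13.6), so all 12 were kept. Alternatives were DESeq2 1.42.0, RLE and upper-quartile scaling, no count filter, 2 groups only, other call limits, a replicate block and leaving out each library.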

Additional observations from a re-analysis of the deposited data

How the results depend on the processing

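The number of members called followed the fold limit. With an absolute log2 fold change over 1 it was 6 for Sen(IR) against Prol, 1 for UK5099 against Sen(IR), 1 for UK5099 against CTPI2 and 5 for UK5099 against Prol. With no fold limit it was 31, 19, 19 and 30. Of all 16251 genes, 3429 were then higher and 3798 lower for UK5099 against CTPI2. For UK5099 against Prol, 5918 of all genes were higher and 6008 lower. The number of all genes called at the limit of 1 is not given here, so the members' counts at that limit describe the setting alone. Leaving out each library in turn gave 15 to 16, 4 to 5, 0 (CTPI2 against Sen(IR)), 4 to 5 and 17 to 20 members. Of the 41 calls by gene and comparison, 7 were lost under an alternative of scaling, test, filter, samples or block, and none reversed. Upper-quartile scaling ended HDAC1 for Sen(IR) against Prol (-0.47) and KAT7, HDAC1, SIRT6 and BRD9 for UK5099 against Prol, SIRT3 was lost for UK5099 against CTPI2 without Sen(IR)+UK5099 replicate 2 (0.46), and HDAC5 for UK5099 against Prol without Prol replicate 2 (0.50). Same-numbered libraries did not deviate together (correlations across genes of -0.0511 to 0.0423). Pairing by number was thus not seen, which does not show that the libraries were made unpaired. The replicate block left 15, 4, 0, 4 and 18 members called. SIRT4, from 9 counts in a library upward, is the member whose size is least certain at this depth, and HDAC10 and BRD7 share much of their exons with other genes. Enzyme activity and protein levels were not measured here.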
